A study of Rattus norvegicus with 46 samples.

Results

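The genes described here are the MHC class II presentation genes of the rat, 10 of the 30045 genes counted in every sample, taken by name: RT1-Ba, RT1-Bb, RT1-Da, RT1-Db1, RT1-DMa, RT1-DMb, RT1-DOa, RT1-DOb, Cd74 and Ciita. All 10 were found under these names, and all 10 passed the filter on low counts in each comparison. Male rats of the inbred Fischer 344 strain, called aged in the series title with no age stated, had breathed crystalline silica (Min-U-Sil 5, a fine quartz dust) or filtered air by whole-body inhalation. Silica was given at 15 mg/m3, 6 hours daily over 5 days, and RNA of lung and of whole blood was sequenced 1 day or 6 months after exposure ended. The 46 samples made 8 groups: silica lung and air lung at 1 day (6 samples each), silica lung (6) and air lung (4) at 6 months, and silica blood and air blood at each time (6 each). Nothing in the labels states that samples came from different animals, so the spread behind a p-value may be technical.

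MHC class II molecules carry peptides from engulfed protein to the cell surface, where CD4+ T cells read them. They are made mainly by dendritic cells, macrophages and B cells, and in the lung also by alveolar type 2 epithelial cells. An alpha and a beta chain pair in the endoplasmic reticulum and bind the invariant chain (Cd74), which blocks the groove until proteases in the endosome cut it down. The DM molecule then exchanges the remaining fragment for other peptides, the DO molecule restrains DM, and the transactivator Ciita switches the whole group of genes on. These roles were worked out largely in human and mouse cells.

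Total estimated counts ran from 13.4 M to 24.6 M per lung sample and from 10.6 M to 17.5 M per blood sample, and levels are given as CPM, counts scaled to the library total, so 3 counts correspond to 0.122 to 0.282 CPM. In lung, 5 library pairs of the same group were nearly identical: a chi-square test at p under 0.05 found 7.69% to 9.64% of genes different in these pairs, and 21.3% to 73.1% in the other 46 lung pairs. Each of these pairs was averaged and counted as 1 library, which left 6 silica and 4 air lungs at 1 day and 5 silica and 2 air lungs at 6 months. The surfactant gene Sftpc stood at 4749 to 17720 CPM in lung and at most 0.194 CPM in blood, and the erythroid gene Slc4a1 at 4.70 to 23.6 CPM in lung and 2183 to 7018 CPM in blood. Both air lungs of 6 months stood apart: the summed CPM of 12 markers of natural killer cells and large granular lymphocytes was 3380 and 3615 there, 354 to 1183 in silica lungs of that time and 234 to 847 in lungs of 1 day. In blood, air library 25 of 6 months reached 3948 CPM, with 142 to 960 in the other libraries of that time. Time points were counted in separate tables, so time and any batch cannot be told apart.

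Class II promoters are known for a conserved module in which an X box, bound by the RFX complex, lies a short way upstream of a Y box, bound by NF-Y, and Ciita docks on the proteins assembled there. The stretch around the Y box is shown for the members with a promoter entry in RefSeq (GRCr8, a genome of another rat strain). Its part in the levels given below was not tested. An entry was found for 8 of 10 members. Each sequence reads 5′ to 3′ on the gene's strand. Capitals mark the Y box core GATTGG and, where that exact string occurs, the X box end AACNGATG. In Cd74 they mark CCAAT, the reverse complement of the shorter core ATTGG.
RT1-Ba: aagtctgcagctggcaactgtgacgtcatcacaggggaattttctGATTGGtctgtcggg
RT1-Bb: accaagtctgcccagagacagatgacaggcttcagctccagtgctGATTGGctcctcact
RT1-Da: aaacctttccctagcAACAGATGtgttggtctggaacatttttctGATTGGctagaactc
RT1-Db1: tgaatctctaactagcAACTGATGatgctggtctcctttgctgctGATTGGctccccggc
RT1-DMa: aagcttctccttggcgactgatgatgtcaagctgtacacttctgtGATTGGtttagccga
RT1-DOa: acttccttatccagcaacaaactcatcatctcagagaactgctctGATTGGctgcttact
RT1-DOb: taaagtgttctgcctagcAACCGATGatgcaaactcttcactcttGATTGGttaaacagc
Cd74: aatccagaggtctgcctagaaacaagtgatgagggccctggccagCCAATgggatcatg

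These windows lie at chr20:4576968-4577027 for RT1-Ba and chr20:4515320-4515379 for RT1-Da on the plus strand, and at chr20:4604166-4604225 for RT1-Bb, chr20:4560229-4560288 for RT1-Db1, chr20:4712386-4712445 for RT1-DMa, chr20:4758517-4758576 for RT1-DOa and chr20:4627593-4627652 for RT1-DOb on the minus strand. The Cd74 window is chr18:56526972-56527030 on the plus strand. All are promoter sequence upstream of the annotated start, where the marked Y box began 44 bases (RT1-Ba) to 108 bases (RT1-DOa) before it in the RT1 genes, and the CCAAT of Cd74 189 bases before it. Searched on both strands from 250 bases before to 50 after the start, GATTGG was present in 7 of the 8 members and in 14.8% of 33469 promoters, and ATTGG in 8 of 8 and in 37.5%. AACNGATG was present in 3 of the 8, RT1-Da, RT1-Db1 and RT1-DOb, and in 2.58% of promoters. The ordered pair AACNGATG and then GATTGG on the gene's strand occurred in the same 3 members, with 22, 21 and 19 bases between the motifs, and in 22 promoters, or 0.0657%, of all. Only these exact strings were searched. A match is a string of letters and not a measured binding site, and a missing match does not show that a box is absent.

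At 1 day, class II transcripts were higher in silica lungs than in air lungs. Of the 10 members, 7 rose and 0 fell: all 4 classical chains, Cd74, RT1-DMb and Ciita, with mean CPM 1.24 to 1.45 times that of air lungs (edgeR's quasi-likelihood test, adjusted p under 0.05). Among all 15724 genes tested, 11.7% passed in either direction and 7.61% were higher. When all 4 lung groups shared 1 estimate of the spread, 0 of 10 members passed at 1 day (edgeR, adjusted p from 0.109 for Ciita to 0.516 for RT1-Db1 among these 7), with 594 genes called in all and the fold changes nearly the same. The members' median log2 fold change was 0.36, beside 0.00 over all genes tested. In bulk tissue, more cells that carry these transcripts and more transcript per cell cannot be told apart.

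The classical chains form RT1-B and RT1-D, the peptide-presenting molecules of the rat. RT1-Bb, the beta chain of RT1-B, had a lowest, median and highest value of 468, 506 and 546 CPM in the 6 silica lungs, against 343, 368, 386 and 402 CPM in the 4 air lungs. Every silica lung lay above every air lung, and the log2 fold change was 0.44 ± 0.06 (SE; edgeR, adjusted p = 0.000212). RT1-Ba, its alpha chain, averaged 398 ± 24.9 CPM in silica lungs and 313 ± 23.7 CPM in air lungs (SD, n = 6 and 4), with a log2 fold change of 0.37 ± 0.06 (edgeR, adjusted p = 0.00149). RT1-Da, the alpha chain of RT1-D, ran from 481 to 577 CPM in silica lungs, against 362, 406, 423 and 453 CPM in air lungs, with a log2 fold change of 0.37 ± 0.07. RT1-Db1, its beta chain, ran from 279 to 336 CPM in silica lungs, against 218 to 267 CPM in air lungs, with a log2 fold change of 0.34 ± 0.06. For RT1-Da and RT1-Db1 the edgeR adjusted p were 0.00261 and 0.00289, and again no silica lung overlapped an air lung. The groups did not overlap, silica higher, in 6 of the 10 members, beside 6.34% of all genes tested.

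Cd74 was the most counted member in every library. It had 1625, 1627, 1647, 1688, 1706 and 1857 CPM in the 6 silica lungs of 1 day, against 1236, 1343, 1418 and 1462 CPM in the 4 air lungs. The groups did not overlap, and the log2 fold change was 0.33 ± 0.06 (edgeR, adjusted p = 0.0022). Ciita had 27.7 to 36.1 CPM in silica lungs and 20.8, 23.8, 26.0 and 26.8 CPM in air lungs, which did not overlap either. Its log2 fold change was 0.38 ± 0.09 (edgeR, adjusted p = 0.0125), close to those of the classical chains. The part of Ciita in their levels was not tested.

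The loading genes need their reads put together before they can be read. The RT1-DMa count was not whole in 31 of 46 samples, and in all 31 it summed to a whole number with the row LOC100909593, an identifier without a gene name here. RT1-DMb was not whole in 43 samples and summed to a whole number with LOC100909630 in all 43. In 5 samples RT1-DMa was listed at 0. In 2 of these the near-identical library did hold counts on RT1-DMa. Silica lung 31 had all 742 of its counts on LOC100909593 and library 30 had 798 on RT1-DMa, and air lung 08 had all 430 on LOC100909593 and library 04 had 567 on RT1-DMa. RT1-Bb, RT1-Db1 and Ciita were not whole in 17, 28 and 11 samples, and RT1-Ba, RT1-Da, RT1-DOa, RT1-DOb and Cd74 were whole in all 46. In 13 samples RT1-Bb and RT1-Db1 summed to a whole number with each other. A level on the RT1-DMa row alone is therefore uncertain, and sums with the sharing row are given beside it.

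**Figure D1:**
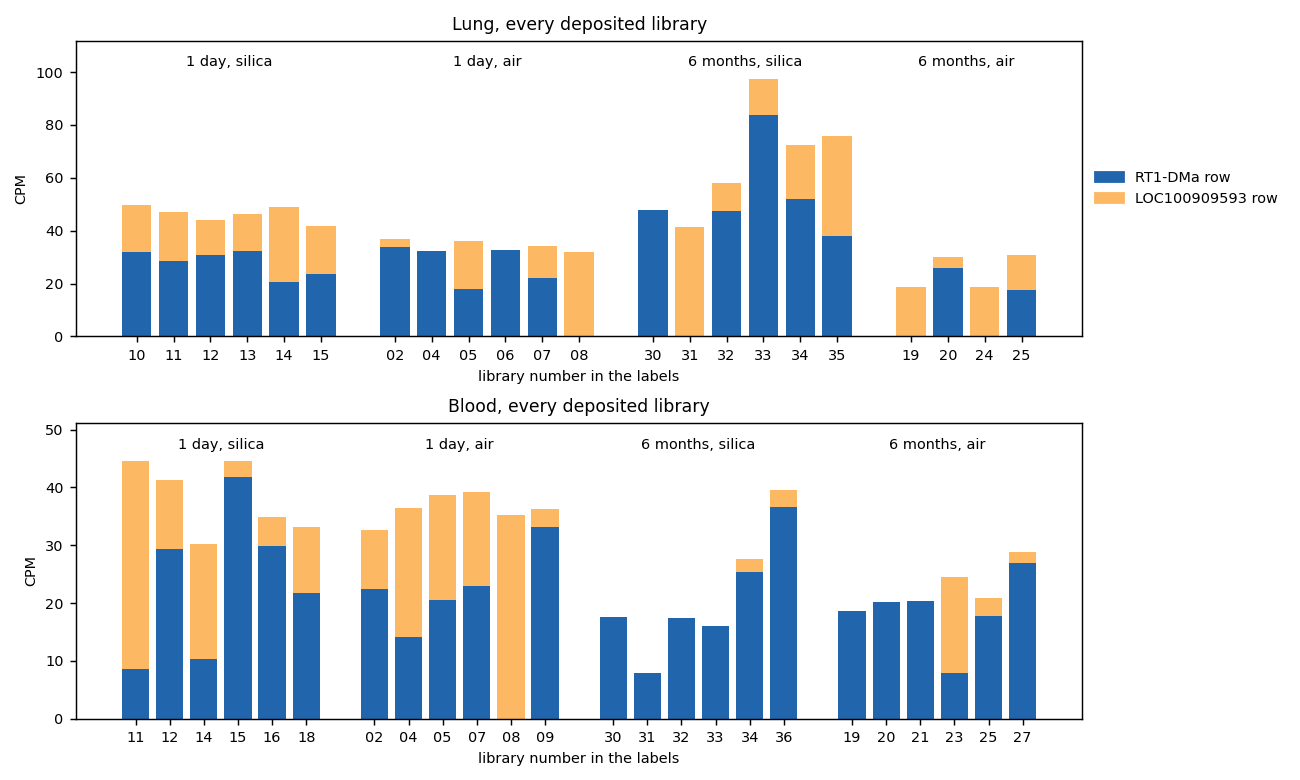
Stacked bars give CPM on the RT1-DMa row (blue) and on the LOC100909593 row (orange) in each of the 46 deposited libraries, lung above and blood below, silica left of air at each time. The split between the rows ran from 0% to 100% on LOC100909593 between libraries, also within the near-identical lung pairs 30 and 31 and 04 and 08, whose sums were 41.5 and 47.9 CPM for 31 and 30 and 32.1 and 32.2 CPM for 08 and 04.

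On its own row RT1-DMa had 20.5 to 32.4 CPM in silica lungs and 18.0 to 32.5 CPM in air lungs of 1 day, with a log2 fold change of 0.23 ± 0.20 (edgeR, adjusted p = 0.551). With the shared reads added back, RT1-DMa had 41.9, 44.2, 46.4, 47.0, 48.9 and 49.8 CPM in silica lungs, against 32.2, 32.5, 35.5 and 35.9 CPM in air lungs. The summed groups did not overlap, and the log2 fold change was 0.47 ± 0.06 (edgeR, adjusted p = 0.000146). RT1-DMb rose on its own row by 0.56 ± 0.13 on the log2 scale (edgeR, adjusted p = 0.0175), with 61.5 to 105 CPM in silica lungs and 55.0 to 64.6 CPM in air lungs. Without the air pair 04 and 08 or air lung 06 the adjusted p of RT1-DMb was 0.0525 and 0.0639 (edgeR). Summed with LOC100909630, RT1-DMb had 101 to 115 CPM in silica lungs and 70.5 to 78.2 CPM in air lungs, without overlap, and a log2 fold change of 0.54 ± 0.05. With both sums in place 8 of 10 members rose. Silica lung 12, the low one on the RT1-DMb row, had 39.8 CPM on LOC100909630, against 9.38 to 20.5 CPM in the other 5 silica lungs, and lay with the rest once summed.

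The DO genes did not pass at 1 day. RT1-DOa, the DO alpha chain, averaged 6.77 ± 1.61 CPM in silica lungs and 6.10 ± 0.938 CPM in air lungs, a log2 fold change of 0.17 ± 0.17 (edgeR, adjusted p = 0.611). RT1-DOb, the DO beta chain, averaged 6.35 ± 1.17 CPM in silica lungs and 5.42 ± 0.72 CPM in air lungs, a log2 fold change of 0.25 ± 0.15 (edgeR, adjusted p = 0.33). Silica and air libraries overlapped for both genes, and the standard errors of 0.17 and 0.15 compare with 0.06 to 0.07 for the classical chains. Leaving out silica lung 14 moved RT1-DOa to 0.03 and RT1-DOb to 0.14.

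Around these genes, 7 of 12 genes of antigen processing rose and 0 fell in silica lungs of 1 day, among them the endosomal proteases Ctsh (log2 fold change 0.63 ± 0.04) and Ctsz (0.64 ± 0.05) and the thiol reductase Ifi30 (0.58 ± 0.05). Of the 7 DNA-binding regulators of class II promoters (Rfx5, Rfxap, Rfxank, Nfya, Nfyb, Nfyc and Creb1), 0 passed. Of 8 tested interferon-gamma signalling genes 3 rose: Ifngr2 (0.34 ± 0.05), Irf8 (0.41 ± 0.08) and Jak2 (0.17 ± 0.04). Of 19 class I presentation genes, Psme2 rose (0.14 ± 0.04) and 2 fell, RT1-CE1 (-0.33 ± 0.08) and RT1-T24-4 (-0.27 ± 0.07). Of 6 tested genes of a costimulation list Cd274 alone rose (0.38 ± 0.06), and it codes for an inhibitory ligand.

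Some markers of other cell types, several of them class II-bearing, also moved at 1 day. Of 9 alveolar type 2 cell markers 6 rose and 0 fell, and their summed CPM was 27986 to 31098 in silica lungs and 22377 to 24865 in air lungs. Of 10 tested alveolar macrophage markers 4 rose and 2 fell (summed CPM 1053 to 1179 in silica lungs and 905 to 1000 in air lungs). Of 9 monocyte markers 4 rose and 0 fell (26192 to 29416 and 20805 to 24599). In whole blood of 1 day the same markers summed to 3763 to 10129 CPM. Which cells carried them in lung was not tested, so the lung sum is not read as monocytes alone. Of 14 dendritic cell markers 5 rose and 0 fell (419 to 445 in silica lungs and 369 to 376 in air lungs). Of 13 B cell markers 0 passed (77.2 to 97.9 in silica lungs and 80.5 to 99.6 in air lungs). None of the markers named in these lists was at 0 in all libraries of either group. The part of these cells in the class II result was not tested.

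At 6 months the difference between silica and air lungs was larger and took in the DO genes. Of the 10 members 9 rose and 0 fell, and with the shared reads added back 10 rose, with mean CPM 1.84 times (RT1-DOb) to 3.27 times (RT1-Db1) that of air lungs, leaving RT1-DMa aside. Of 16265 genes tested, 19.6% passed in either direction and 9.52% were higher. All 10 members were higher in every silica lung than in either air lung, beside 19.9% of all genes tested, a share that is high because the air group holds only 2 counted libraries. The members' median log2 fold change was 1.67, beside -0.00 over all genes tested.

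Cd74 had 1667, 2153, 2704, 2870 and 4048 CPM in the 5 silica lungs, against 729 and 1025 CPM in the 2 air lungs. Library 33 was the highest for 8 of the 10 members. The log2 fold change of Cd74 was 1.65 ± 0.38 (edgeR, adjusted p = 0.0235). RT1-Ba had 391, 511, 627, 680 and 939 CPM in silica lungs, against 170 and 235 CPM in air lungs, and rose by 1.67 ± 0.37 on the log2 scale (edgeR, adjusted p = 0.0201). RT1-Bb had 485 to 1043 CPM in silica lungs, against 206 and 297 CPM in air lungs, a log2 fold change of 1.68 ± 0.34. RT1-Da had 507 to 1246 CPM in silica lungs, against 228 and 314 CPM in air lungs, a log2 fold change of 1.68 ± 0.37. RT1-Db1 had 299 to 800.0 CPM in silica lungs, against 131 and 190 CPM in air lungs, a log2 fold change of 1.74 ± 0.41. The edgeR adjusted p of these 3 chains were 0.0155, 0.0209 and 0.025. The 4 chains and Cd74 thus shared 1 order of libraries at the ends, lowest in the pair 30 and 31 and highest in library 33.

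Ciita had 30.4, 34.3, 34.9, 37.7 and 40.1 CPM in silica lungs, against 10.8 and 17.8 CPM in air lungs. Its log2 fold change was 1.34 ± 0.21 (edgeR, adjusted p = 0.00862), the smallest adjusted p of the 10. Library 33, with the highest Cd74, lay in the middle for Ciita. Its Cd74 CPM was 116 times its Ciita CPM, against 54.8 to 71.7 times in the other 4 silica lungs and 57.5 and 67.6 times in the air lungs.

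RT1-DMb had 74.9 to 167 CPM in silica lungs, against 34 and 48.6 CPM in air lungs, and rose by 1.53 ± 0.33 on the log2 scale (edgeR, adjusted p = 0.0194). RT1-DMa on its own row was listed at 0 in the air pair 19 and 24 and stood at 22.4 CPM in the air pair 20 and 25, against 23.1 to 83.9 CPM in silica lungs, with a log2 fold change of 2.18 ± 1.22 (edgeR, adjusted p = 0.252). Summed with LOC100909593, RT1-DMa had 44.6, 57.9, 72.6, 75.9 and 97.3 CPM in silica lungs, against 18.7 and 30.4 CPM in air lungs. The summed log2 fold change was 1.54 ± 0.35 (edgeR, adjusted p = 0.0224).

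RT1-DOa had 5.53, 7.39, 8.51, 9.59 and 11.7 CPM in silica lungs, against 2.17 and 3.19 CPM in air lungs, a log2 fold change of 1.70 ± 0.35 (edgeR, adjusted p = 0.0167). RT1-DOb had 4.39, 4.61, 5.59, 5.79 and 6.41 CPM in silica lungs, against 2.6 and 3.24 CPM in air lungs. RT1-DOb rose least of the 10, by 0.89 ± 0.24 on the log2 scale (edgeR, adjusted p = 0.0355).

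**Figure D2:**
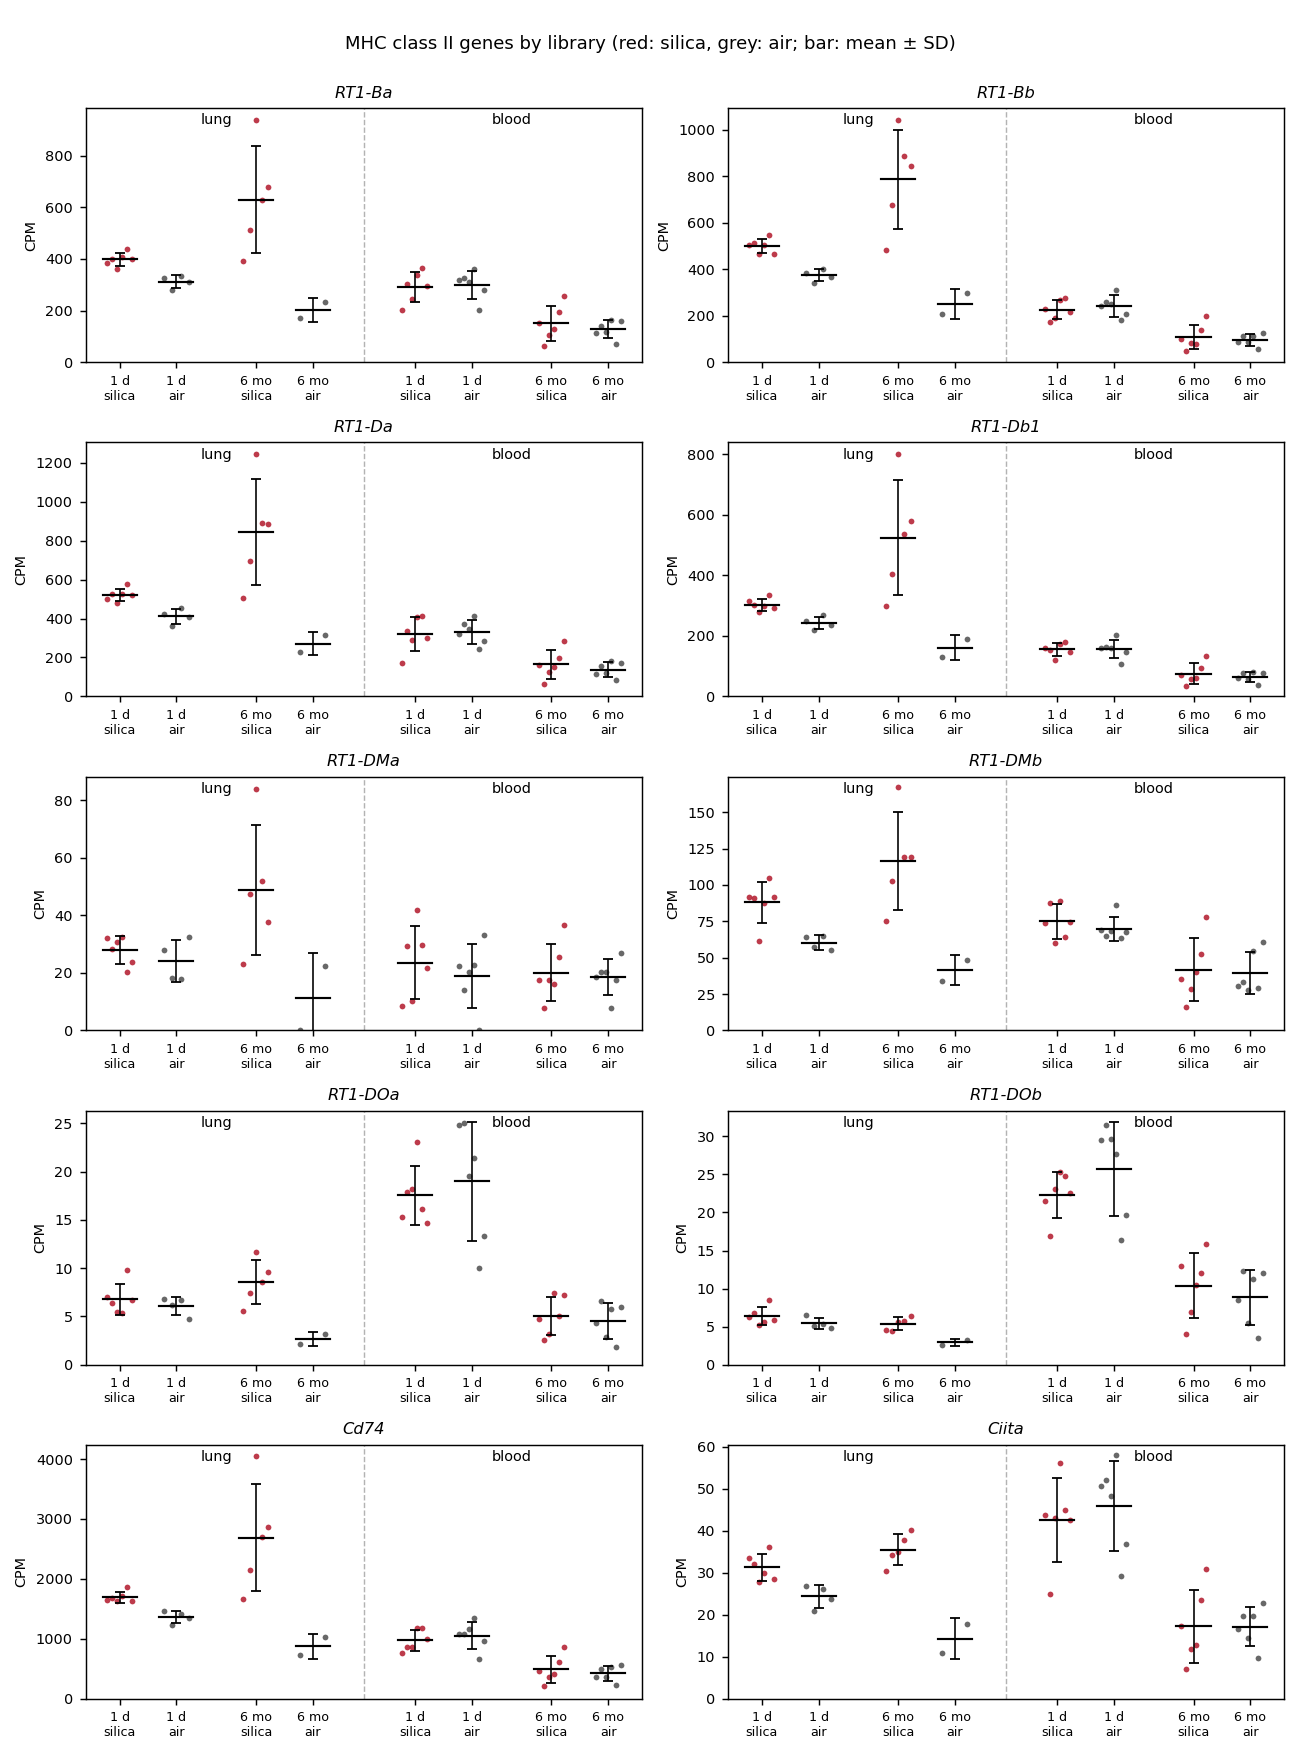
Points give CPM of each of the 10 genes in the 41 counted libraries, silica (red) left of air (grey) at each time, lung left and blood right of the dashed line, with bars for mean ± SD (n = 2 to 6; the bar of RT1-DMa in air lungs of 6 months runs below 0 and is cut there). In lung of 6 months the silica points lie above both air points in every panel, and in blood the silica and air points overlap in every panel.

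The 6-month result rests on 2 air libraries. Without the air pair 19 and 24, 0 of 10 members passed and 57 genes in all, and the log2 fold change of Cd74 was 1.47 (edgeR, adjusted p = 0.223). Without the pair 20 and 25, 2 members passed, Ciita and RT1-DMa, whose row is then at 0 in the remaining air pair. Every member stayed higher in silica in both fits. Without silica lung 34 or 35, Cd74, RT1-Db1 and RT1-DOb did not pass (edgeR, adjusted p 0.0529 for Cd74 to 0.0827 for RT1-DOb). The 2 air pairs are also the libraries with the high natural killer and granular lymphocyte sums, and 11 of those 12 markers were lower in silica lungs, led by Nkg7 (-2.97 ± 0.41), Klrd1 (-1.85 ± 0.26) and Eomes (-3.70 ± 0.51). The part of these cells in the class II result was not tested.

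Among the related genes at 6 months, 9 of 12 processing genes rose and 0 fell, led by March1 (1.01 ± 0.20), a ubiquitin ligase known in mouse for class II turnover, Ctsh (1.86 ± 0.39) and the asparagine endopeptidase Lgmn (1.51 ± 0.35). Of the 19 class I genes 0 passed, with a median log2 fold change of 0.01. Of the 7 DNA-binding regulators 0 passed, with a median of -0.26. Interferon-gamma signalling was mixed, with 2 of 9 higher, Ifngr2 (1.12 ± 0.14) and Ifngr1 (0.54 ± 0.15), and 4 lower, among them Jak1 (-0.93 ± 0.21), Irf1 (-0.60 ± 0.14) and, named after its value was seen, Ifng (-2.62 ± 0.64). Ifng, the cytokine best known for inducing Ciita, did not exceed 0.962 CPM in any lung library. RT1-Ha, another class II gene of low level, rose by 1.65 ± 0.29 and stood at 1.5 to 2.21 CPM in silica lungs and 0.564 and 0.685 CPM in air lungs, and RT1-Db2 did not pass (-1.20 ± 0.75). Of 7 tested genes of the costimulation list 4 rose, among them Cd83 (1.22 ± 0.22), Icoslg (0.77 ± 0.14) and Cd86 (1.66 ± 0.32), and Cd80 fell (-1.85 ± 0.36).

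Cell markers moved with the class II genes again. Of 11 alveolar macrophage markers 7 rose and 0 fell, with summed CPM of 949 to 1675 in silica lungs, against 635 and 765 in air lungs. Of 9 type 2 cell markers 7 rose and 0 fell (25717 to 51323 in silica lungs, against 13500 and 17045 in air lungs). Of 9 monocyte markers 6 rose and 0 fell (26311 to 51903, against 13533 and 15146). In whole blood of 6 months the same markers summed to 1963 to 6979 CPM. Again, which cells carried them in lung was not tested, and the lung sum is not read as monocytes alone. Of 11 tested B cell markers 5 rose, led by Fcer2, Ms4a1 and Cd79b (summed CPM 62.1 to 78.9 in silica lungs, against 48.8 and 50.7 in air lungs), and Cd79a was listed at 0 in both air libraries. Of 14 dendritic cell markers 7 rose, led by Clec9a, Ccr7 and Itgae, and 2 fell, Itgax (-2.09 ± 0.33) and Fscn1 (-0.63 ± 0.17), so that their sum ran the other way, 360 to 518 CPM in silica lungs against 657 and 777 CPM in air lungs. The part of these cells in the class II result was not tested.

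The larger difference at 6 months held as a test of the difference itself. In 1 fit over the 4 lung groups, the silica effect was larger at 6 months than at 1 day in 8 of 10 members and smaller in 0, beside 26.8% of 16568 genes that passed in either direction and 12.2% that were higher. The difference of the 2 effects was 1.29 ± 0.31 on the log2 scale for Cd74, 0.92 ± 0.20 for Ciita and 1.50 ± 0.36 for RT1-DOa (edgeR, adjusted p 0.00644, 0.00375 and 0.00713). RT1-DMa did not pass on its own row and passed with the shared reads added back (1.04 ± 0.29, edgeR, adjusted p = 0.015), and RT1-DOb did not pass (0.61 ± 0.26, adjusted p = 0.0863). Without the air pair 19 and 24, 0 members passed, and the difference was 1.11 for Cd74 (edgeR, adjusted p = 0.0792). RT1-DMb did not pass in 6 of the 17 fits without a library: those without air pair 19 and 24 (adjusted p = 0.243), the 1-day air pair 02 and 07, air lung 05 or silica lung 13, or the 6-month silica lungs 34 or 35 (adjusted p 0.0504 to 0.0636). RT1-DOb passed without silica lung 14 (0.71, edgeR, adjusted p = 0.0356).

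The same change can be read within each exposure, as levels without a test. From 1 day to 6 months, 0 of 10 members separated in silica lungs, with 6-month means 0.843 to 1.74 times those of 1 day. In air lungs 9 of 10 members were lower in both 6-month libraries than in all 4 libraries of 1 day. Of all 16568 genes, 5.1% were lower in this way in silica lungs and 34.5% in air lungs. After TMM scaling over all lung libraries the counts were 0 of 10 in silica lungs (3.95% of genes) and 9 of 10 in air lungs (30.8%). Over the 10 members the 6-month means in air lungs were 0.439 to 0.683 times those of 1 day. Cd74, for example, averaged 2688 ± 896 CPM in silica lungs of 6 months and 1692 ± 87.2 CPM in silica lungs of 1 day, and 877 ± 209 CPM in air lungs of 6 months and 1365 ± 99.1 CPM in air lungs of 1 day.

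**Figure D3:**
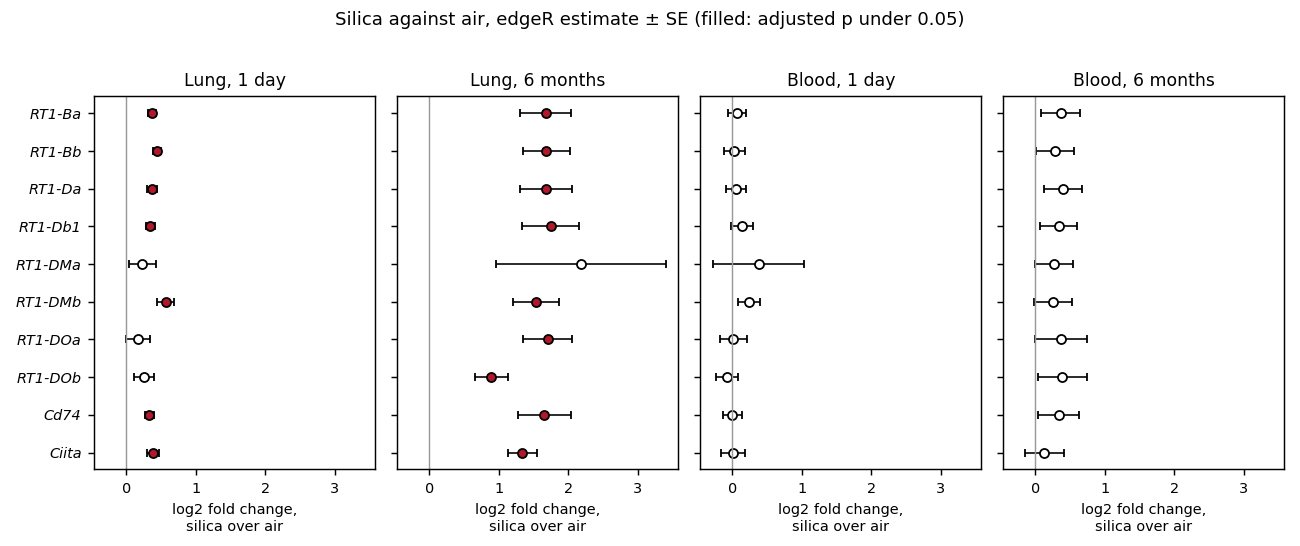
Points give the log2 fold change of silica over air for each of the 10 genes with its standard error, in lung and blood at 1 day and 6 months, filled where the adjusted p was under 0.05. Filled points are 7 of 10 in lung at 1 day and 9 of 10 in lung at 6 months, and 0 in blood.

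In blood, no member passed the test between silica and air. At 1 day 0 of 10 passed, beside 0% of 11876 genes (0 also with DESeq2), and at an unadjusted p under 0.05 stood 430 genes and 0 members. At 6 months 0 of 10 passed, beside 0% of 11615 genes (2 with DESeq2), and at an unadjusted p under 0.05 stood 720 genes and 0 members. Silica and air libraries overlapped for all 10 members at both times, beside 0.00842% and 0.00861% of genes in which every silica library was higher. The late effect minus the early effect passed in 0 of 10 members and 0% of 12264 genes, with 335 genes and 0 members at an unadjusted p under 0.05.

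Cd74 in blood of 1 day had 757, 858, 869, 991, 1178 and 1181 CPM in silica blood, against 668, 962, 1073, 1084, 1165 and 1340 CPM in air blood, a log2 fold change of 0.00 ± 0.13. Ciita averaged 42.5 ± 10.1 CPM in silica blood and 45.8 ± 10.7 CPM in air blood, a log2 fold change of 0.01 ± 0.17. The widest estimate was that of RT1-DMa, at 0.38 ± 0.66, whose row was listed at 0 in air library 08 and held 33.2 CPM in air library 09. Summed with LOC100909593, RT1-DMa ran from 30.2 to 44.5 CPM in silica blood and from 32.6 to 39.2 CPM in air blood.

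At 6 months all 10 blood estimates were above 0, from 0.13 for Ciita to 0.40 for RT1-Da, with standard errors of 0.27 to 0.38 and a median of 0.33, beside 0.01 over all genes tested. Cd74 had 215, 358, 419, 467, 606 and 865 CPM in silica blood, against 225, 366, 369, 496, 535 and 554 CPM in air blood. In these CPM, without TMM, the silica group spread more widely than the air group, and its lowest value lay below every air value. That value was of silica library 31, with a TMM factor of 0.521, and the lowest air value was of library 25, with a factor of 1.93. The wider spread and the lowest place therefore depend on the scaling. Without air library 25, the one with the high granular lymphocyte sum, the estimate of Cd74 was 0.12 and that of Ciita was -0.09.

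The silica effect was not shown to differ between lung and blood. At 1 day the lung effect minus the blood effect passed in 0 of 10 members, beside 0.192% of 16148 genes. At an unadjusted p under 0.05 stood 1031 genes and 1 member. At 6 months 0 of 10 passed, beside 1.17% of 16444 genes, and at an unadjusted p under 0.05 stood 2189 genes and 8 members. The differences ran from 0.65 (RT1-DOb) to 2.03 (RT1-DMa) on the log2 scale. For RT1-Bb the 6-month difference was 1.54 ± 0.49 (edgeR, adjusted p = 0.142). DESeq2 called 2 members there, RT1-Bb and RT1-Db1, and 8 members passed in edgeR without blood air library 25. The counts over all genes in these fits are not given here, so the member counts are not read as particular to these genes.

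The 2 tissues differed in which members stood high. RT1-Bb, RT1-Db1 and RT1-Da had their highest group mean in silica lungs of 6 months, at 787, 523 and 845 CPM, and their lowest in air blood of 6 months, at 97.2, 65.0 and 138 CPM. Cd74 followed the same order at its ends, with 2688 CPM in silica lungs of 6 months and 424 CPM in air blood of 6 months. RT1-DOa and RT1-DOb instead had their highest means in blood of 1 day, 17.6 CPM (silica) and 19 CPM (air) for RT1-DOa and 22.3 CPM (silica) and 25.7 CPM (air) for RT1-DOb. Every library of those blood groups lay above every lung library for RT1-DOb. Ciita also had its highest means in blood of 1 day, 42.5 CPM in silica blood and 45.8 CPM in air blood, but these overlapped silica lungs of 6 months at 35.5 CPM. Neighbouring groups in these orders mostly overlapped; for Cd74 the one gap lay between silica and air lungs of 1 day.

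Taken per library as a ratio to Cd74, the DO beta chain separated the tissues. RT1-DOb CPM was 1.47% to 2.94% of Cd74 CPM over the 24 blood libraries and 0.138% to 0.455% over the 17 lung libraries. These ratios are not corrected for gene length and are read only across libraries. Within lung of 6 months the ratio was 0.138% to 0.276% in silica lungs and 0.316% and 0.356% in air lungs, without overlap. Ciita was 2.86% to 5.77% of Cd74 in blood and 0.861% to 2.04% in lung. RT1-Da, in contrast, held between 22.8% and 38.8% of Cd74 in blood and between 28.9% and 33% in lung. DO against its target DM gave the same separation, RT1-DOb being 10.4% to 42.8% of summed RT1-DMb in blood and 3.02% to 8.44% in lung. DO is known in mouse and human mainly from B cells, and the 13 B cell markers summed to 67.4 to 543 CPM in blood and 48.8 to 99.6 CPM in lung. In blood of 6 months alone the sums were 67.4 to 230 CPM and overlapped those of lung. The part of B cells in the separation of the tissues was not tested.

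**Figure D4:**
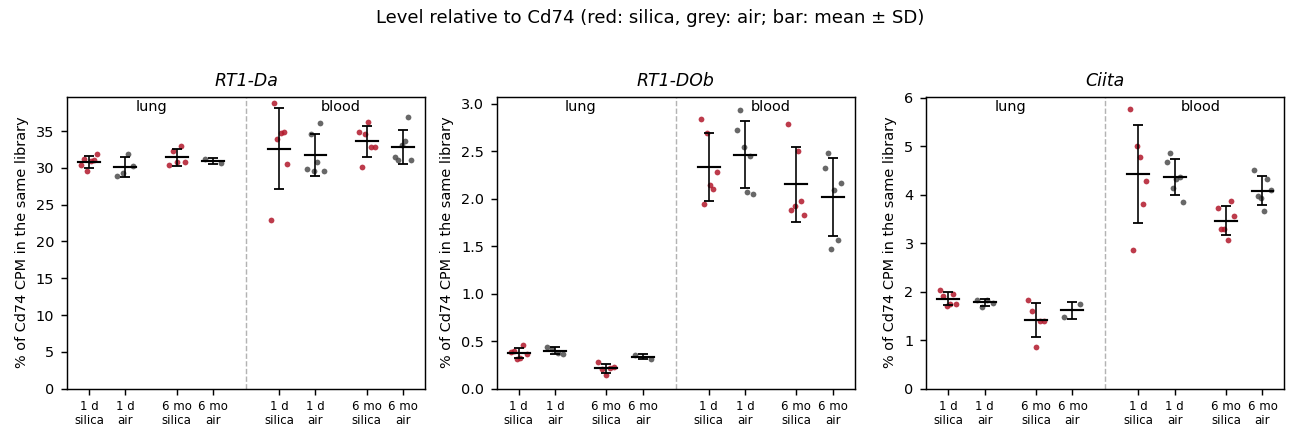
Points give the CPM of RT1-Da, RT1-DOb and Ciita as a percentage of Cd74 CPM in the same library, silica (red) left of air (grey), with mean ± SD. RT1-Da lies at like shares in lung and blood, while every blood point of RT1-DOb and of Ciita lies above every lung point.

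In blood, 2 of 10 members, RT1-DOa and RT1-DOb, lay lower in every silica library of 6 months than in any of 1 day, beside 2.01% of all 12264 genes. In air blood 9 of 10 members did so, beside 3.21% of genes. The 6-month means were 0.286 to 0.854 times those of 1 day in silica blood and 0.239 to 0.986 times in air blood, and no test was run between the times. RT1-DOa averaged 5.02 ± 1.99 CPM in silica blood of 6 months and 17.6 ± 3.05 CPM in silica blood of 1 day, and 4.55 ± 1.87 CPM in air blood of 6 months and 19 ± 6.13 CPM in air blood of 1 day. After TMM scaling over all blood libraries, which changes blood levels more than lung levels, 6 members lay lower in silica blood (1.21% of genes) and 8 in air blood (1.57%), and the RT1-DMa row was then 1.12 times its 1-day mean in silica blood and 1.21 times in air blood. Summed B cell markers ran from 73.9 to 230.0 CPM in silica blood of 6 months and 282 to 533 CPM in silica blood of 1 day, and from 67.4 to 189 CPM in air blood of 6 months and 286 to 543 CPM in air blood of 1 day. Their part in these levels was not tested.

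**Figure D5:**
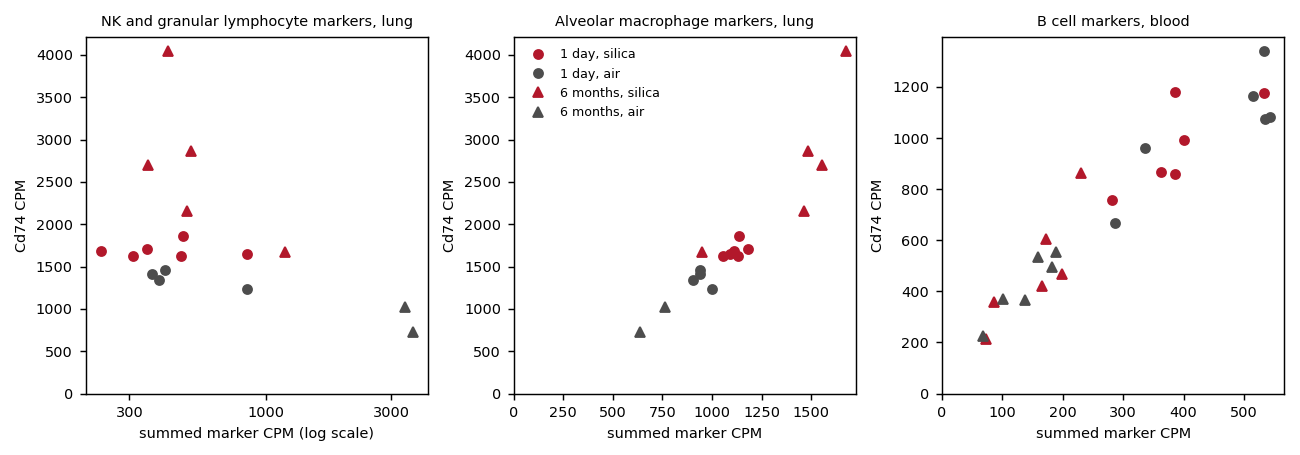
Each point is a counted library, with Cd74 CPM on the vertical axis and the summed CPM of a marker list on the horizontal axis: natural killer and granular lymphocyte markers in lung (log scale), alveolar macrophage markers in lung and B cell markers in blood. The 2 air lungs of 6 months lie at the lowest Cd74 and at 3380 and 3615 CPM of granular lymphocyte markers, and blood libraries of 6 months lie low on both axes of the B cell panel.

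The classical chains followed Cd74 closely across libraries, and other members did so less. Over the 17 lung libraries the Pearson correlation of log2 CPM with Cd74 was 0.998 for RT1-Ba, 0.997 for RT1-Da, 0.996 for RT1-Db1 and 0.989 for RT1-Bb, and it was lower for Ciita (0.867), RT1-DMa on its own row (0.786) and RT1-DOb (0.58). In the 24 blood libraries RT1-DOb stood at 0.966 and Ciita at 0.967, and RT1-DMa at 0.24. With each group centred on its mean, the lung correlations of the classical chains were 0.961 to 0.993, that of RT1-DMa 0.589, that of Ciita 0.572 and that of RT1-DOb 0.558. The values over all libraries are descriptive, since the libraries share group differences. All correlations here use CPM without TMM, whose factors ran from 0.521 to 1.93 in blood. Differences in scaling between blood libraries therefore enter the blood values, centred or not, and their part was not tested. Outside the family, the genes most like the members' mean in lung were Csf2ra (0.979), Serping1 (0.976), Aif1 (0.976), Dok3 (0.974) and LOC100360908 (0.972), of 14983 genes over 17 libraries. In blood they were Pecam1 (0.967), Gga2 (0.967), Fgd2 (0.964), Swap70 (0.954) and Spib (0.954), of 11348 genes over 24 libraries. With the same centring, the lung list held Hpn (0.946), Paqr6 (0.942), Ctss (0.933) and Gm2a (0.928), of which Ctss is the protease that cuts the invariant chain. The blood list was then Cd22 (0.925), Pecam1 (0.924), Gga2 (0.923), Fgd2 (0.915) and Spib (0.89), of which Cd22 and Spib also stand among the 13 B cell markers.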

How the data were processed

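RNA was sequenced in 46 rat samples, lung and whole blood. Per the submitters' processing notes, the build was Rnor_6.0 and the tools were Salmon 1.10.1, STAR 2.6.1d, Trim Galore 0.6.7, cutadapt 3.4 and bcl2fastq 2.19, listed without roles. The values the authors deposited are estimated counts per gene, not scaled, 1 table for each tissue and time. Salmon splits reads that fit several rows by probability, and blood RNA was depleted of globin messenger RNA, per the labels' protocols. The annotation used is not named here, and both assemblies come from another strain, while the RT1 complex varies between strains.

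All columns matched a sample by name, and 0 were left over. Counts were rounded, and near-identical libraries (under 10% of genes different by chi-square, over genes with a mean of 20 counts and whole counts in both) were averaged as 1. edgeR 4.0.16 in R 4.3.3 was run over all genes (filterByExpr, TMM, robust quasi-likelihood F test, Benjamini-Hochberg adjustment, threshold 0.05) on the 2 groups compared, or on 4 groups for differences of effects, and was tested on simulated data. Lung libraries had TMM factors of 0.95 to 1.03, and blood libraries of 0.521 to 1.93. CPM are counts scaled to the library total, without TMM unless stated. The floor of 3 counts covers counting error only.

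The members and gene lists were chosen with earlier results of these data known. From each list the text names up to 3 genes in each direction with the smallest adjusted p, and the genes of like pattern are the 5 with the highest Pearson correlation of log2 CPM (pseudocount 1) with the members' standardised mean. Lists not found in part were missing Iigp1, Marchf1, Marchf8, RT1-CE16, RT1-Hb, RT1-Bb2, Adgre1, Ccr2 and Il7r. Alternatives were other size factors, no filter, DESeq2 1.42.0, separate libraries, pooled groups and each library left out, and adding back shared reads was chosen after seeing the data. Some genes that these lists hold are not reported here.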

Additional observations from a re-analysis of the deposited data

Results flagged for a closer look

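In lung, the silica effect at 6 months differed from that at 1 day by the test of the difference in 8 members. The differences on the log2 scale were 1.29 for Cd74, 0.92 for Ciita, 1.28 for RT1-Ba, 1.21 for RT1-Bb, 1.28 for RT1-Da, 1.37 for RT1-Db1, 0.94 for RT1-DMb and 1.50 for RT1-DOa, each larger at 6 months. These rest on the same 2 air libraries of 6 months. Of 70 sets of libraries, 10 genes in each group of 4 or more, 2 held a library far from the others, where chance gives about 1 in 20. Cd74 stood at 1857 CPM in silica lung 14 of 1 day, with 1625 to 1706 CPM in the other 5. RT1-DMb stood at 86.2 CPM in air blood 07 of 1 day, with 63.3 to 68.9 CPM in the other 5.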

How the results depend on the processing

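Of 460 single values under settings other than leaving out a library, 444 kept their side of the threshold, 8 lost the call, 8 gained it and 0 called values reversed. In 3 of the 444, none past the threshold, the sign changed: Cd74 in blood at 1 day with no filter, and in lung minus blood at 1 day RT1-DOa with the replicate block and RT1-DMa with shared reads added back. The count of members past the threshold in lung at 1 day was 7 and fell to 0 with all 4 lung groups in 1 fit. For the 6-month lung effect minus the blood effect it was 0 and came to 2 with DESeq2 and 2 with each library separate, with the counts over all genes in these fits not given here. Leaving out a library gave 6 to 7 members in lung at 1 day, 0 to 9 in lung at 6 months, 0 to 9 for the lung difference between times and 0 to 8 for the 6-month difference between tissues (1 without lung air 20 and 25). It gave 0 throughout in the other 4 comparisons. Of 1230 single values without a library, 36 below the threshold changed sign.

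Lung and blood share numbers in their titles, which the labels do not tie to animals. Same-numbered lung and blood libraries had a median correlation of deviations of -0.0156 at 1 day (9 pairs) and 0.00212 at 6 months (8 pairs). Between different numbers the medians were -0.0141 and 0.0408. The highest values were 0.341 and 0.247 for same numbers and 0.271 and 0.245 for different numbers. The numbers were not taken as pairs, though these values do not exclude that some are. With the number as a replicate block, 0 members passed at either time, and 4 genes in all at each.

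With 2 counted air libraries at 6 months, a fit without either of them assumes that the lone one varies like the silica group. RT1-DMa and RT1-DMb levels are limited by shared reads. RT1-DOa and RT1-DOb stood low in lung, at 2.17 to 11.7 CPM, though above the lung floor of 0.122 to 0.224 CPM. RT1-Bb, RT1-Db1 and Ciita also held shared reads in some samples, and their share was not measured.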

Other observations

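Markers of T cells, the cells that read class II, split in silica lungs of 6 months. Of 11 tested, 7 rose, led by Cd5 (log2 fold change 2.24 ± 0.34), Cd4 (1.08 ± 0.18), the coreceptor for class II, and Cd6 (1.60 ± 0.27). The 3 that fell were Cd247 (-2.96 ± 0.37), Cd8a (-2.55 ± 0.50), the coreceptor for class I, and Lck (-1.86 ± 0.38). Bulk tissue does not show which cells carried these transcripts, so a shift between kinds of T cell cannot be read from them. Their summed level ran the other way, 274 to 566 CPM in silica lungs, against 974 and 1176 CPM in air lungs. The natural killer and granular lymphocyte sums lay apart in the same direction, 354 to 1183 CPM in silica lungs and 3380 and 3615 CPM in air lungs, and their part was not tested. At 1 day 0 of 11 T cell markers passed. Neutrophil markers rose in 5 of 8 at 1 day, led by S100a9 (1.90 ± 0.14), and in 6 of 8 at 6 months, led by Csf3r (2.69 ± 0.31), with 0 lower. Of 6 endothelial markers 3 fell at 1 day, led by Cldn5 (-0.43 ± 0.08), and 0 passed at 6 months. Of 9 interferon-gamma induced genes 1 rose at each time, Cxcl11 (1.57 ± 0.44 at 1 day and 4.49 ± 1.18 at 6 months). Erythroid markers had 0 of 7 past the threshold at both times in lung. In blood 0 genes of any list passed at either time.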
